A study of Mus musculus with 12 samples.

Results

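A set of 10 interferon-induced genes of the antiviral response was followed through every library of the series: Mx1, Mx2, Rsad2, Isg15, Usp18, Bst2, Ifitm3, Lgals3bp, Ifi44 and Eif2ak2. These 10 genes were taken by name from the 54100 features that all 12 count files share, and each was found there. RNA counts were available for 6 groups of 2 mouse libraries, all labelled C57BL/6J, in a series on the kinase CK1α (encoded by Csnk1a1) and cGAS-STING signalling, the route by which DNA in the cytosol raises interferon. The groups SSTC3_Control and SSTC3 received DMSO or SSTC3, which is known as a small-molecule activator of CK1α. Their 4 source labels give bone marrow-derived macrophages (BMDM) with a TREX knockout, numbered TREX1-KO and TREX2-KO for SSTC3 and TREX3-KO and TREX4-KO for DMSO, so each library carries its own number and the numbers cannot be told apart from the treatment. The other 8 libraries are labelled mouse embryonic fibroblasts (MEF): CK1a_OV (CK1α overexpression) with OV_control, and CK1a_siRNA (CK1α knockdown) with knockdown_control. No dose, time, construct or siRNA sequence is stated, nor whether replicates were separate cultures, so a p-value here reflects only how far these libraries differ, possibly for technical reasons.

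Type I interferon binds a receptor whose kinases switch on the factor ISGF3, which contains STAT2 and IRF9. ISGF3 binds the interferon-stimulated response element (ISRE), a pair of GAAA repeats in the promoters of many interferon-stimulated genes, and IRF3 and IRF7 can bind similar sequences directly. The encoded proteins act at different steps of an infection: MX GTPases on incoming or replicating virus, the enzyme viperin (Rsad2) on nucleotide pools, the ubiquitin-like ISG15 by joining to proteins, tetherin (Bst2) and IFITM3 at membranes, and the kinase PKR (Eif2ak2) on translation.

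The promoters of 7 of the 10 genes (Rsad2, Isg15, Bst2, Ifitm3, Lgals3bp, Ifi44 and Eif2ak2) were matched by symbol in RefSeq, build GRCm38.p6, as the stretch from 250 bases before to 50 bases after the start of the gene. The ISRE core was searched on both strands as GAAA, any 2 bases and GAAA again, and matches may overlap. This string was present in 5 of these 7 promoters and in 3.44% of all 32851 promoters of the table. A wider spacing of the GAAA repeats was not searched, so a promoter without a match can still hold an ISRE-like element. Lgals3bp holds gaaaatcgaaact, and Ifi44 holds agtttcagttttc, which is such a wider pair on the opposite strand. The share of all promoters with the wider spacing was not computed. The stretches around the matches are shown because the 5 genes share this element at different distances from their starts. Each is written 5′ to 3′ on the minus strand, which is the coding strand of all 5 genes, with the core matches in capitals and the chromosome interval of the stretch in brackets.
Isg15 (chr4:156200850-156200921): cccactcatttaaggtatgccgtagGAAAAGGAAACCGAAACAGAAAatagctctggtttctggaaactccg
Bst2 (chr8:71537562-71537627): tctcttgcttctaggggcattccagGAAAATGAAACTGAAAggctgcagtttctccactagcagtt
Rsad2 (chr12:26456538-26456597): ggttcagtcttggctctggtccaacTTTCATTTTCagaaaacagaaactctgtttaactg
Ifitm3 (chr7:141010715-141010744): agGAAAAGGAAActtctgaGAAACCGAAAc
Eif2ak2 (chr17:78882544-78882556): ggGAAAACGAAAc
Isg15 had 3 overlapping cores from base -78 to base -57, counted from the first base of the gene as 0. In Bst2, 2 overlapping cores spanned -130 to -115, and in Rsad2 a single match to the searched core lay at -120 to -111 on the opposite strand. Just after that match, the Rsad2 stretch holds gaaaacagaaact on the coding strand. This pair has the wider spacing that was not searched and is left in lower case, so the match does not settle the orientation of the element. The cores of Ifitm3 (2, from 2 to 28) and Eif2ak2 (1, from 18 to 27) lay past the start. The gamma-interferon activated site (GAS), TTCNNNGAA, was found in 3 of the 7 promoters, those of Bst2, Ifitm3 and Eif2ak2, and in 8.3% of all promoters. In Bst2 and Ifitm3 it overlaps an ISRE match. The NF-κB letters, GGGA, any base and TTTCC, were found in 0 of the 7 and in 0.411% of all. A match describes the letters in a window and does not show binding.

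**Figure D1:**
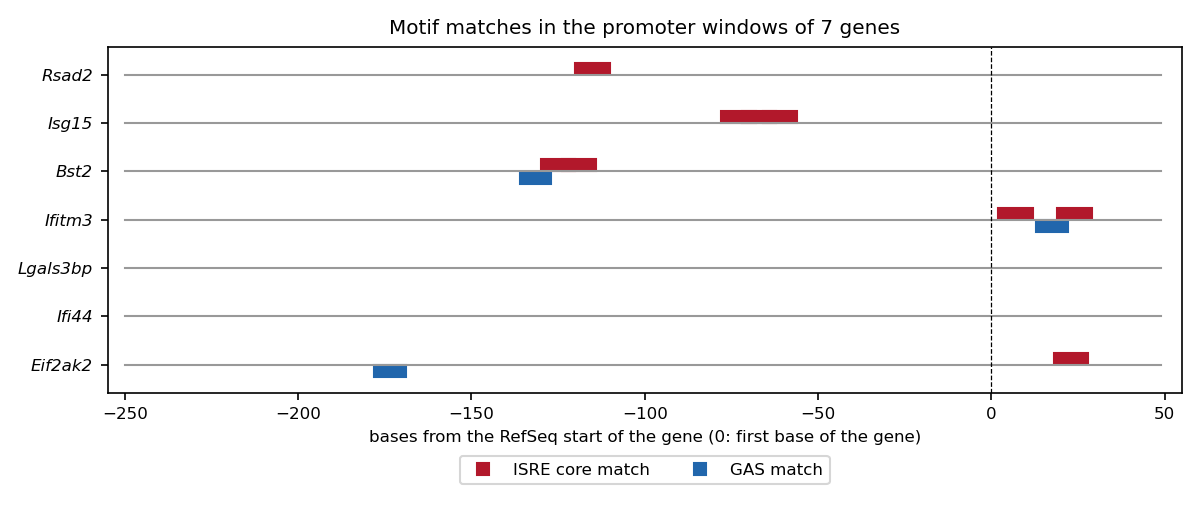
Positions of the ISRE core and GAS matches in the promoter windows of the 7 matched genes, in bases from the RefSeq start of each gene (x axis); each line is a gene, and colours mark the motif. Isg15, Bst2 and Rsad2 have their ISRE cores upstream of the start, and Ifitm3 and Eif2ak2 have theirs within 28 bases after it. Pairs of GAAA repeats with a wider spacing, as in Lgals3bp, Ifi44 and Rsad2, were not searched and are not drawn.

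Library totals ran from 16063627 to 19427506 counts. Csnk1a1 was checked as the targeted gene: it had 171.5 and 169.2 CPM (counts scaled to a common library total) in the knockdown against 325.0 and 354.1 CPM in its controls (log2 fold change -0.96 ± 0.05, SE, edgeR adjusted p = 2.88e-27). In the libraries labelled CK1a_OV its level was 229.3 and 244.4 against 237.8 and 234.7 CPM (-0.01 ± 0.04, adjusted p = 0.901), so the direction of that comparison rests on the label. With SSTC3 the change was 0.07 ± 0.04 (adjusted p = 0.111). Of 21 macrophage markers, 10 to 14 had 0 counts in each library labelled BMDM, among them Adgre1, Itgam, C1qa and Tyrobp in all 4, and their sum was 9.56 to 12.2 CPM. In the same libraries 14 fibroblast markers summed to 5853 to 7402 CPM, so the BMDM label goes against these markers, and the set is called the BMDM-labelled set below. The knockdown set had macrophage markers at 254 to 302 CPM, nearly all from Cd68, and the overexpression set at 14.2 to 17.6 CPM. Because the 3 comparisons share no library, none of the values of one comparison rests on the libraries of another.

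Across the 6 groups the 10 transcripts were most abundant in the knockdown set. Their summed level was 6389 and 6418 CPM with CK1a_siRNA and 2328 and 2345 CPM in knockdown_control. It was 795.1 and 805.3 CPM in OV_control, 665.6 and 658.5 CPM in CK1a_OV, 348.3 and 348.2 CPM with SSTC3, and 241.7 and 245.5 CPM with DMSO. The 2 libraries of a group lay closer to each other than to any library of another group. CK1a_siRNA was the highest group for 9 of the 10 genes, the exception being Eif2ak2. The BMDM-labelled and knockdown files share a list of 54532 features but differ in cell label. The overexpression and knockdown sets are both labelled MEF, but the overexpression files list 55401 features. Whether the sets were cultured or prepared together is not stated, so levels across sets are given without a test. In these bulk samples, fewer expressing cells and less RNA per cell cannot be told apart.

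**Figure D2:**
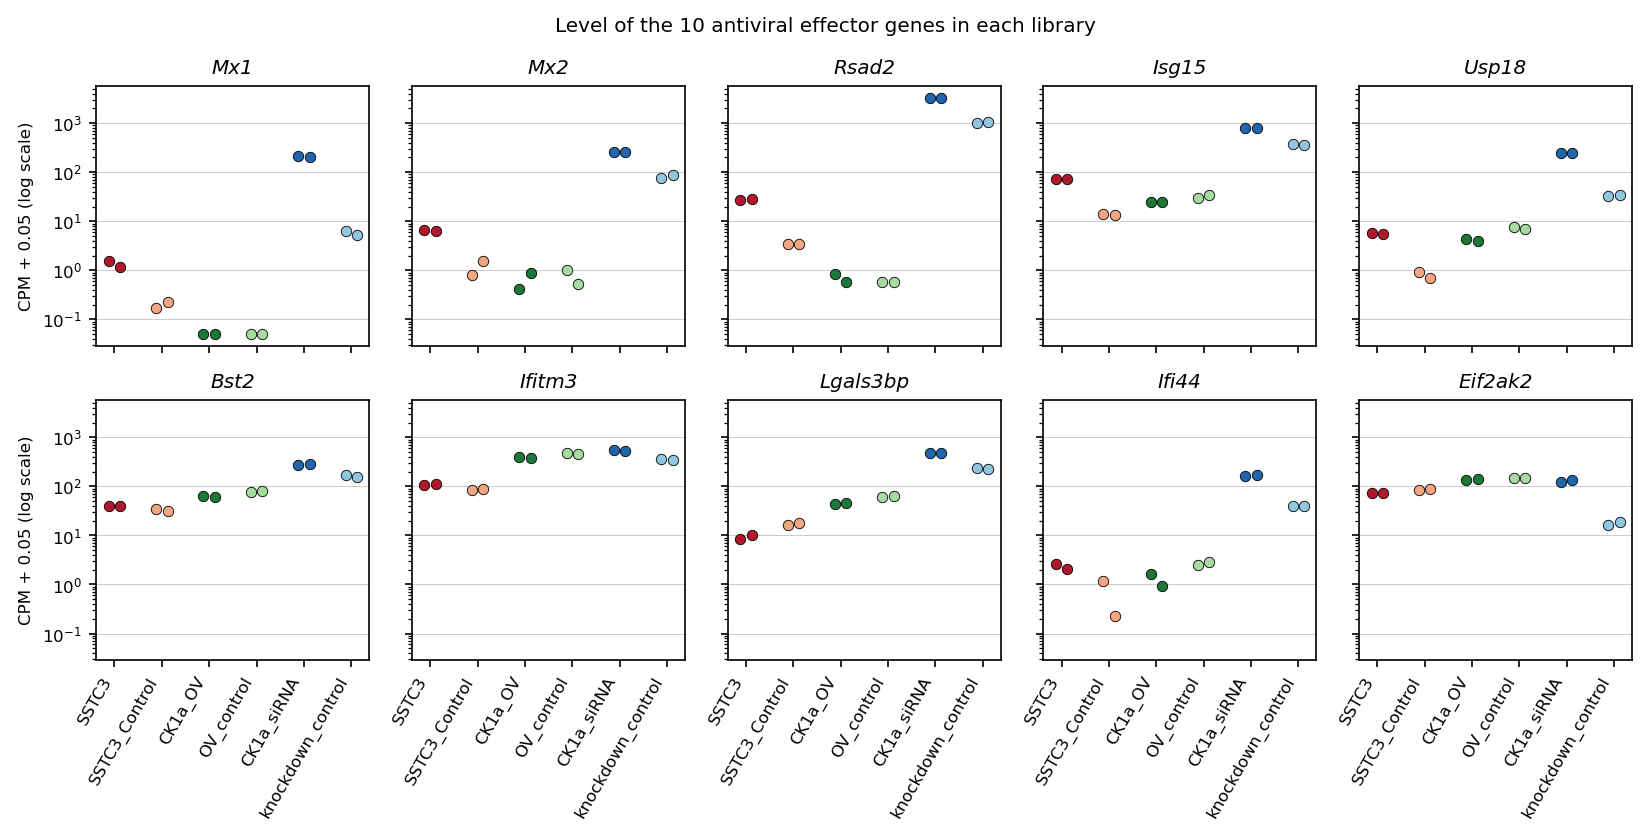
Level of each of the 10 genes in every library, in CPM of the library total (log scale), with points for libraries and colours for the 6 groups. The CK1a_siRNA libraries are highest for all genes but Eif2ak2, whose lowest group is knockdown_control at 16.1 and 18.8 CPM.

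Within each comparison, the genes were read from an edgeR quasi-likelihood fit of all tested genes, with a call at a Benjamini-Hochberg adjusted p below 0.05. With SSTC3, 8 of the 10 were higher and 2 lower, with a median log2 fold change of 2.17; 27.1% of all 14151 genes tested were called higher and 26.5% lower, and the median of all was 0.01. Among the 10, 6 were called and at least 2-fold higher, which held for 8.24% of all genes. In the knockdown all 10 were higher, 8 of them at least 2-fold, with a median of 1.69; of 14832 genes tested 28.3% were called higher, 26.4% lower, and 5.25% were called and at least 2-fold higher. In the overexpression comparison 8 of the 10 had enough counts to be tested, of which 6 were lower, 0 higher and 2 not called, with a median of -0.35; 7.57% of 13958 genes were called lower there and 5.78% higher. With SSTC3 the groups did not overlap in CPM for each of the 10 genes, as for 75.3% of all genes tested. With knockdown both treated libraries lay above both controls for all 10, as for 35.5% of all, and with overexpression both lay below for 7 of the 8 tested, as for 24.4% of all.

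**Figure D3:**
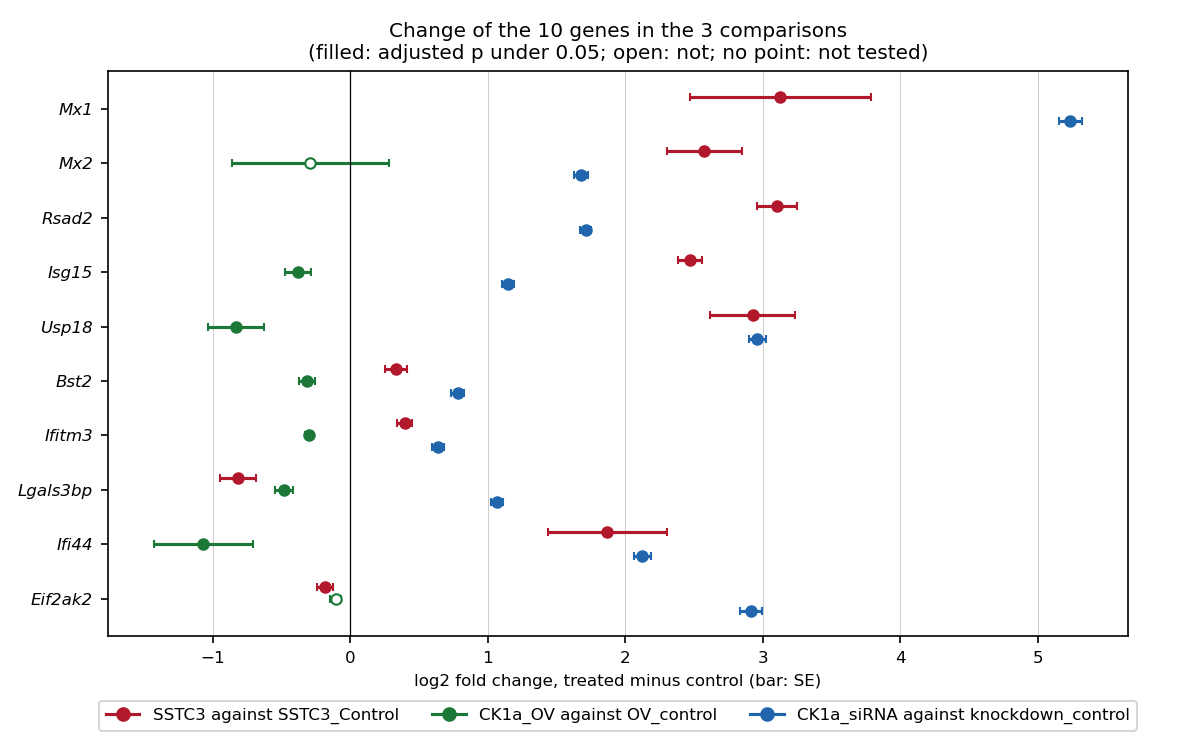
Log2 fold change of each of the 10 genes, treated minus control, in the 3 comparisons (x axis; bars are SE, n = 2 libraries per group; filled points have an adjusted p under 0.05). SSTC3 and knockdown points lie to the right of 0 except Lgals3bp and Eif2ak2 with SSTC3, and the tested overexpression points lie to the left.

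Mx1 and Mx2 encode dynamin-like GTPases that block virus replication, and C57BL/6 mice are known to carry a defective Mx1 allele. Mx1 (ENSMUSG00000000386, mm10 chromosome 16, 97447035 to 97462907, minus strand) and Mx2 (ENSMUSG00000023341, chromosome 16, 97535308 to 97560900, plus strand, annotated as a polymorphic pseudogene) lie next to each other. Mx1 had 218.4 and 200.8 CPM with CK1a_siRNA against 6.23 and 5.21 CPM in its controls. This was the largest change of the 10 genes in any comparison (log2 fold change 5.24 ± 0.09, SE, 37.7-fold, edgeR adjusted p = 1.48e-52) and ranked 12 among 14832 genes by size of rise. With SSTC3 the Mx1 level was 1.47 and 1.12 CPM against 0.117 and 0.178 CPM. Those levels are 44 counts over both treated and 5 over both control libraries, a ratio of 8.79 with an exact 95% interval of 3.49 to 28.4 for counting error alone (log2 fold change 3.13 ± 0.66, adjusted p = 1.33e-05). Mx1 had 0 counts in all 4 libraries of the overexpression set, which allows up to 0.173 to 0.179 CPM per library at a limit of 3 counts.

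Mx2 was read at 261.4 and 253.9 CPM with CK1a_siRNA against 78.0 and 86.8 CPM, and at 6.71 and 6.19 CPM with SSTC3 against 0.762 and 1.48 CPM. It rose in both comparisons, by 1.68 ± 0.05 (adjusted p = 1.98e-37) and 2.57 ± 0.27 (adjusted p = 3e-17) on the log2 scale. In the overexpression set the groups overlapped, with 0.357 and 0.834 CPM against 0.981 and 0.465 CPM (-0.29 ± 0.57, adjusted p = 0.802). Per kilobase of exon, Mx2 averaged 22.8 CPM in knockdown_control and Mx1 1.51 CPM, and Mx2 had the smaller rise in that set. The 2 genes share few 50-base stretches, 4.37% of Mx1 and 4.38% of Mx2 recurring in transcripts of other genes, including each other.

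Rsad2 (ENSMUSG00000020641, chromosome 12, 26442746 to 26456452, minus strand) encodes viperin, which converts CTP to a chain-terminating nucleotide. It was 3290 and 3298 CPM with CK1a_siRNA and 1010 and 1053 CPM in the controls of the knockdown. In the BMDM-labelled set it was 27.7 and 28.0 CPM with SSTC3 against 3.4 and 3.32 CPM. The rise was larger with SSTC3 (3.10 ± 0.14, 8.58-fold, adjusted p = 3.64e-57) than with knockdown (1.71 ± 0.04, 3.27-fold, adjusted p = 9.52e-46), and the difference between them was itself called (1.42 ± 0.11, adjusted p = 6.64e-21). In the overexpression set Rsad2 stayed at 0.519 to 0.773 CPM and had too few counts for the test; 22 against 18 counts gave a ratio of 1.26 with an exact interval of 0.64 to 2.49. Cmpk2, the gene beside Rsad2 on chromosome 12 and encoding a nucleotide kinase, rose by 1.81 ± 0.14 with SSTC3 (adjusted p = 2.56e-27) and by 2.06 ± 0.25 in the knockdown (adjusted p = 1.39e-10). Its mean level was 19.3 CPM with SSTC3 and 7.09 CPM with CK1a_siRNA, the reverse of the order for Rsad2.

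Isg15 (ENSMUSG00000035692, chromosome 4, 156199424 to 156200818, minus strand) encodes the ubiquitin-like modifier that is joined to newly made proteins. With SSTC3 it had 72.2 and 71.7 CPM against 13.7 and 13.2 CPM, a rise of 2.47 ± 0.09 (5.54-fold, adjusted p = 1.94e-80). With CK1a_siRNA it had 785.4 and 806.5 CPM against 370.8 and 366.8 CPM, a rise of 1.15 ± 0.04 (2.21-fold, adjusted p = 3.51e-34). In the overexpression set it had 24.9 and 24.3 CPM against 29.4 and 33.9 CPM, lower by log2 -0.38 ± 0.09 (adjusted p = 0.00399). This last call was lost with DESeq2 (adjusted p = 0.0617) and without OV_control replicate 2 (-0.27, adjusted p = 0.148).

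Usp18 (ENSMUSG00000030107, chromosome 6, 121245906 to 121270917, plus strand) encodes the protease that removes ISG15 and also holds back the interferon receptor. Its level was 249.9 CPM in both CK1a_siRNA libraries against 32.2 and 33.5 CPM, and 5.77 and 5.54 CPM with SSTC3 against 0.880 and 0.653 CPM. The rises were 2.96 ± 0.06 (7.78-fold, adjusted p = 1.63e-48) and 2.93 ± 0.31 (7.6-fold, adjusted p = 1.97e-17), and the difference of -0.0045 ± 0.19 was not called (adjusted p = 0.989). In the overexpression set it had 4.34 and 3.93 CPM against 7.68 and 6.92 CPM, lower by log2 -0.83 ± 0.20 (adjusted p = 0.00269). Usp18 shares 124 exonic bases with the antisense gene Gm44148, which had at most 9 counts in any library.

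Of the 5 enzymes that attach ISG15, 3 were higher with SSTC3, 4 were higher with CK1a_siRNA and 2 were lower with overexpression. The difference between these counts was not tested. Of all genes tested, 27.1% were called higher with SSTC3, 28.3% higher with knockdown and 7.57% lower with overexpression. Uba7, the activating enzyme, had a log2 fold change of 0.08 ± 0.20 with SSTC3 (adjusted p = 0.768) and 2.41 ± 0.10 in the knockdown (adjusted p = 1.9e-31), and these effects differed by -2.30 ± 0.22 (adjusted p = 8.03e-16). Ube2l6, the conjugating enzyme, rose by 0.34 ± 0.13 (adjusted p = 0.0179) and 2.07 ± 0.08 (adjusted p = 6.42e-34), and was lower by log2 -0.35 ± 0.12 with overexpression (adjusted p = 0.0449). Herc6, a ligase for ISG15 in mouse, rose by 0.54 ± 0.17 and 0.69 ± 0.13, and Trim25, another ligase, by 0.31 ± 0.06 and 0.46 ± 0.04. Trim25 was the other enzyme lower with overexpression (-0.21 ± 0.05, adjusted p = 0.00353). The median of the 5 was 0.31 with SSTC3, -0.21 with overexpression and 0.69 with knockdown.

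Bst2 and Ifitm3 encode membrane proteins, tetherin holding budding virions at the cell surface and IFITM3 hindering fusion of virus in endosomes. Both had the smallest rises with knockdown among the 10. Bst2 (ENSMUSG00000046718, chromosome 8, 71534255 to 71537456, minus strand) had 272.6 and 280.3 CPM with CK1a_siRNA against 170.9 and 159.0 CPM (0.78 ± 0.05, adjusted p = 1.72e-22). With SSTC3 it had 40.7 and 39.5 CPM against 34.6 and 31.6 CPM (0.33 ± 0.08, adjusted p = 0.000201), and with overexpression 63.7 and 62.2 CPM against 75.4 and 79.6 CPM (-0.31 ± 0.06, adjusted p = 7.3e-05). No 2 groups of these comparisons overlapped, though none of the Bst2 changes reached 2-fold.

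Ifitm3 (ENSMUSG00000025492, chromosome 7, 141009586 to 141010770, minus strand) had 551.9 and 539.9 CPM with CK1a_siRNA against 367.4 and 352.0 CPM (0.64 ± 0.04, adjusted p = 8.77e-21). With SSTC3 it had 108.6 and 110.0 CPM against 85.3 and 87.4 CPM (0.40 ± 0.06, adjusted p = 5.87e-11). With overexpression it had 389.9 and 378.0 CPM against 470.3 and 468.7 CPM (-0.30 ± 0.03, adjusted p = 2.75e-11), the smallest adjusted p of the 8 genes tested there. Its OV_control level lay above its knockdown_control level, which was not so for any other of the 10 genes except Eif2ak2. Of the 50-base stretches of Ifitm3, 10.02% recur in other genes such as Ifitm1 and Ifitm2, so part of its reads may fit more than 1 gene. How the counting treated such reads is not stated, and their effect on the Ifitm3 level was not tested. The log2 fold changes of Ifitm2 were -0.26 ± 0.06 with SSTC3 (adjusted p = 4.86e-05), -0.13 ± 0.05 with overexpression (adjusted p = 0.075) and -0.06 ± 0.10 with knockdown (adjusted p = 0.663).

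Lgals3bp (ENSMUSG00000033880, chromosome 11, 118392751 to 118402092, minus strand) encodes a secreted glycoprotein that binds galectins. It was 471.1 and 483.3 CPM with CK1a_siRNA against 237.6 and 229.9 CPM, a rise of 1.07 ± 0.04 (adjusted p = 3.22e-31). With SSTC3 it moved the other way, with 8.48 and 10.4 CPM against 16.6 and 18.0 CPM (-0.82 ± 0.13, adjusted p = 1.24e-08). With overexpression it was 44.6 and 45.0 CPM against 61.0 and 62.8 CPM (-0.48 ± 0.07, adjusted p = 2.64e-07). By calls, it was thus the gene of the 10 that was lower in 2 comparisons and higher in the third, the knockdown. Eif2ak2 had the same directions but was not called with overexpression. The galectin gene Lgals3 rose with SSTC3 by 0.37 ± 0.05 (adjusted p = 2.28e-11) and with knockdown by 0.15 ± 0.04 (adjusted p = 0.00144). Lgals1 rose with SSTC3 by 0.16 ± 0.03 (adjusted p = 5.72e-06) and had a log2 fold change of -0.40 ± 0.04 with knockdown (adjusted p = 1.98e-09).

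Ifi44 (ENSMUSG00000028037, chromosome 3, 151730922 to 151749960, minus strand) is an interferon-inducible gene induced in many virus infections. With CK1a_siRNA it had 164.5 and 171.7 CPM against 39.0 and 40.1 CPM, a rise of 2.12 ± 0.06 (4.35-fold, adjusted p = 1.83e-39). Its neighbour Ifi44l rose there by 2.00 ± 0.26 (adjusted p = 7.5e-10) from a mean of 1.62 to 6.34 CPM. With SSTC3 Ifi44 had 2.59 and 2.01 CPM against 1.11 and 0.178 CPM, which is 78 against 22 counts, a ratio of 3.54 with an exact interval of 2.18 to 5.97 (log2 fold change 1.87 ± 0.43, adjusted p = 7.66e-05). The 2 DMSO libraries set this value: the log2 fold change was 3.68 without SSTC3_Control replicate 1 and 1.09 without SSTC3_Control replicate 2, and the call was lost with DESeq2 (adjusted p = 0.162). With overexpression Ifi44 had 1.61 and 0.894 CPM against 2.42 and 2.79 CPM (-1.07 ± 0.36, adjusted p = 0.0368), and leaving out CK1a_OV replicate 2, OV_control replicate 1 or OV_control replicate 2 ended that call (-0.71, -1.17 and -0.96, adjusted p = 0.319, 0.102 and 0.226).

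Eif2ak2 (ENSMUSG00000024079, chromosome 17, 78852564 to 78882573, minus strand) encodes PKR, which binds double-stranded RNA and phosphorylates the translation factor eIF2. It had 124.3 and 133.1 CPM with CK1a_siRNA against 16.1 and 18.8 CPM, a rise of 2.91 ± 0.08 (7.54-fold, adjusted p = 3.96e-41). The knockdown_control libraries stood apart here, since every other library of the series had at least 73.8 CPM, 3.92 times the higher of the 2. The 2 CK1a_siRNA libraries lay between the BMDM-labelled set and the overexpression set. With SSTC3 Eif2ak2 had 74.1 and 73.8 CPM against 85.3 and 89.5 CPM (-0.19 ± 0.06, adjusted p = 0.00484), a call lost without SSTC3_Control replicate 2 (-0.16, adjusted p = 0.0615). With overexpression it had 135.5 and 142.7 CPM against 147.5 and 149.5 CPM (-0.11 ± 0.04, adjusted p = 0.0834).

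Of 9 eIF2 kinases and partners of PKR, 6 were higher and 2 lower with SSTC3, and 1 was higher with overexpression. In the knockdown 4 were higher and 4 lower. The medians with SSTC3, overexpression and knockdown were 0.34, 0.04 and 0.13. Of all genes tested, 27.1% were called higher and 26.5% lower with SSTC3, and 5.78% higher with overexpression. In the knockdown 28.3% of all were called higher and 26.4% lower. Ppp1r15a, which encodes the stress-induced subunit of an eIF2α phosphatase, rose by 2.72 ± 0.06 with SSTC3 (adjusted p = 8.7e-126) and by 0.18 ± 0.04 with overexpression (adjusted p = 0.00101), and had a log2 fold change of -2.81 ± 0.04 in the knockdown (adjusted p = 3.16e-53). Its knockdown_control libraries also stood apart, with at least 1463 CPM against at most 216.9 CPM in any other library. Eif2ak3, the kinase PERK of the endoplasmic reticulum, had at least 102.2 CPM in the same controls and at most 38.0 CPM elsewhere (-1.49 ± 0.07 in the knockdown, adjusted p = 3.44e-28). Dnajc3, whose product inhibits PKR and PERK, changed by -0.59 ± 0.05 in the knockdown (adjusted p = 3.3e-17) and by 0.45 ± 0.06 with SSTC3 (adjusted p = 5.01e-12). Adar, an editor of double-stranded RNA, rose by 2.12 ± 0.05 in the knockdown (adjusted p = 2.03e-44) and by 0.33 ± 0.06 with SSTC3 (adjusted p = 2.12e-07). The part of these control levels in the Eif2ak2 result was not tested.

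The signalling genes upstream of the effectors were read from a list as well. Of 9 genes of the interferon receptor and ISGF3 pathway, 5 were higher and 0 lower with SSTC3 (median 0.21). With overexpression 0 were higher and 1 lower (median -0.01), and in the knockdown 5 were higher and 2 lower (median 0.94). Of all genes tested, 27.1% were called higher and 26.5% lower with SSTC3. The shares called higher and lower were 5.78% and 7.57% with overexpression, and 28.3% and 26.4% in the knockdown. Stat2 had a log2 fold change of 1.42 ± 0.05 in the knockdown (adjusted p = 3.09e-36) and 0.02 ± 0.10 with SSTC3 (adjusted p = 0.877), effects that differed by -1.37 ± 0.10 (adjusted p = 7.55e-23). Both CK1a_siRNA libraries had at least 341.8 CPM of Stat2, and no other library had more than 134.7 CPM. Irf9 rose by 1.95 ± 0.06 in the knockdown (adjusted p = 5.61e-37) and by 0.28 ± 0.09 with SSTC3 (adjusted p = 0.00554), and was the gene lower with overexpression (-0.31 ± 0.10, adjusted p = 0.0217).

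Irf7, an interferon-induced regulator that amplifies interferon production, rose in both, by 3.10 ± 0.22 with SSTC3 (adjusted p = 1.84e-32) and 2.35 ± 0.07 in the knockdown (adjusted p = 1.83e-39). Irf1 rose by 0.62 ± 0.08 (adjusted p = 2.68e-12) and 1.89 ± 0.05 (adjusted p = 5.53e-40). Ifnar1, a chain of the interferon receptor, rose by 0.66 ± 0.06 with SSTC3 (adjusted p = 5.35e-24) and was lower by log2 -0.16 ± 0.07 in the knockdown (adjusted p = 0.0449). Ifnar2, the other chain, named after its values were seen, rose by 0.94 ± 0.10 in the knockdown (adjusted p = 3.25e-13) and had -0.10 ± 0.10 with SSTC3 (adjusted p = 0.371). Of the receptor's kinases, Jak1 rose with SSTC3 by 0.21 ± 0.05 (adjusted p = 1.83e-05), and Tyk2 was not called in any comparison. The other gene lower in the knockdown was Irf3, named after its values were seen (-0.46 ± 0.09, adjusted p = 1.08e-05). So Irf7 was the one gene of this list with a rise of at least 2-fold with SSTC3, and 4 had one in the knockdown. Such rises were called for 8.24% and 5.25% of all genes tested.

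**Figure D4:**
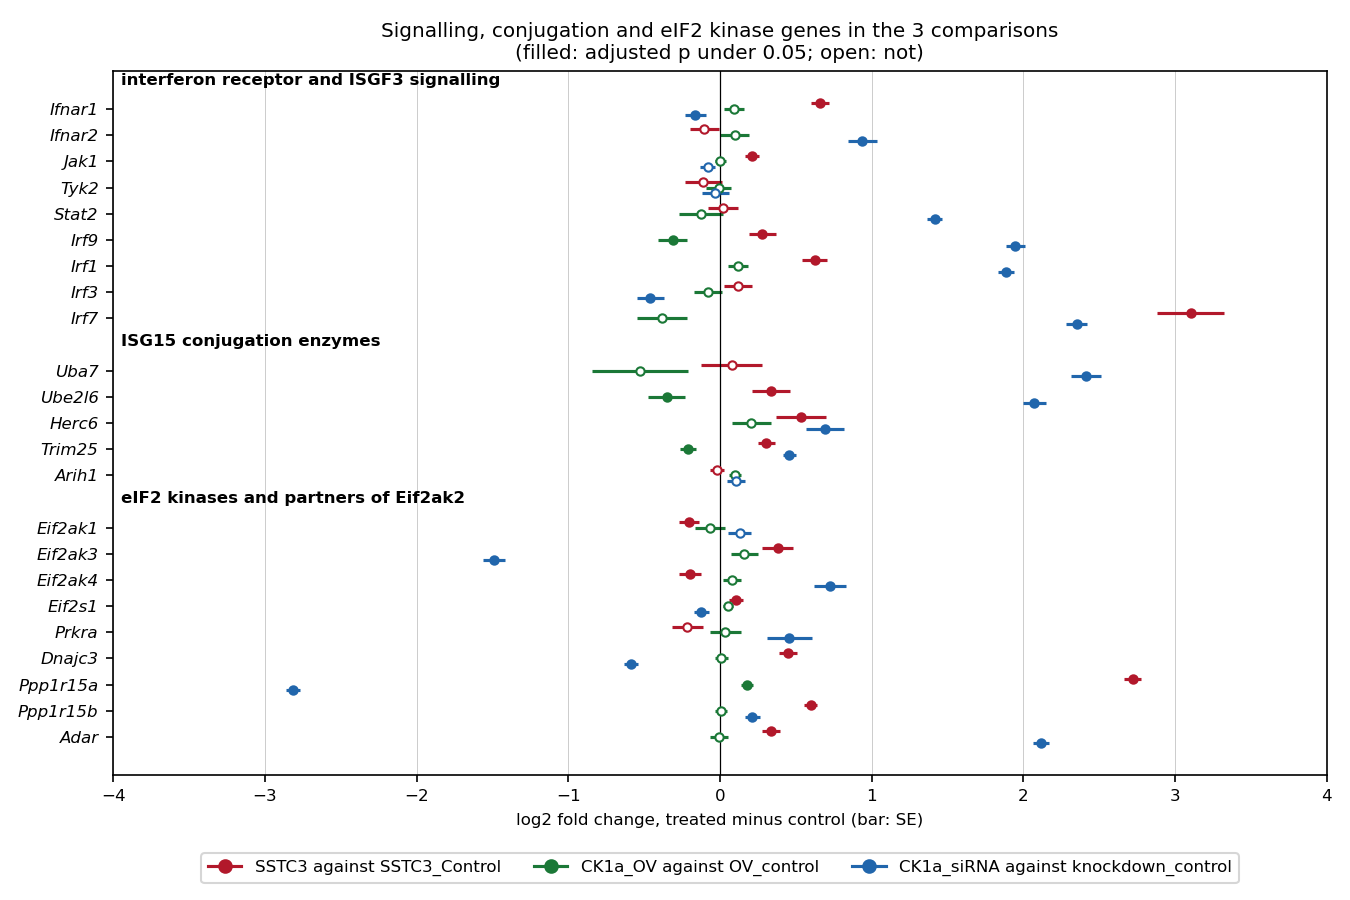
Log2 fold changes, treated minus control, of the genes of the interferon receptor and ISGF3 pathway, the ISG15 conjugation enzymes and the eIF2 kinases with partners of Eif2ak2, in the 3 comparisons (x axis; bars are SE, n = 2 libraries per group; filled points have an adjusted p under 0.05). Irf7 rises in both the SSTC3 and the knockdown comparison, Stat2 in the knockdown, and Ppp1r15a lies on opposite sides of 0 in these comparisons.

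The differences between the effects were tested as contrasts in a fit of all 12 libraries. The SSTC3 effect was above the overexpression effect for 7 of the 9 genes tested and below it for 1, Lgals3bp (-0.34 ± 0.12, adjusted p = 0.014), where 18.3% of all genes were called above and 16.6% below. The Lgals3bp call was lost without SSTC3 replicate 1 (-0.21, adjusted p = 0.231) and without SSTC3_Control replicate 2 (-0.29, adjusted p = 0.0862). Eif2ak2 was not called (-0.08 ± 0.08, adjusted p = 0.456), and Mx1, with 0 counts in 1 set, was left out. The overexpression effect was below the knockdown effect for all 9 genes tested, from -0.91 ± 0.05 for Ifitm3 to -3.76 ± 0.16 for Usp18, where 19.6% of all genes were called below. The Rsad2 call (-1.37 ± 0.36, adjusted p = 0.0134) was lost without CK1a_OV replicate 2, OV_control replicate 1 or OV_control replicate 2 (adjusted p = 0.0877, 0.075 and 0.0778), and that of Mx2 (-1.94 ± 0.45, adjusted p = 0.000274) without OV_control replicate 1 (-1.31, adjusted p = 0.116).

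The SSTC3 and knockdown effects differed for 8 of the 10 genes, against 48.1% of all genes; 25.1% of all had the larger change (treated minus control) with SSTC3 and 23% with knockdown. SSTC3 had the larger rise for 3: Rsad2, given above, Isg15 (1.35 ± 0.08, adjusted p = 8.6e-27) and Mx2 (0.92 ± 0.25, adjusted p = 0.00157). Knockdown lay above SSTC3 for 5: Eif2ak2 (-3.07 ± 0.09, adjusted p = 8.07e-49), Mx1 (-2.08 ± 0.83, adjusted p = 0.0316), Lgals3bp (-1.85 ± 0.11, adjusted p = 2.78e-28), Bst2 (-0.42 ± 0.08, adjusted p = 1.38e-05) and Ifitm3 (-0.21 ± 0.06, adjusted p = 0.00211). The Mx1 call was lost without SSTC3 replicate 2, SSTC3_Control replicate 1 or SSTC3_Control replicate 2 (adjusted p = 0.0567, 0.0702 and 0.279), and that of Mx2 without SSTC3_Control replicate 1 (0.51, adjusted p = 0.158). The Usp18 and Ifi44 effects (-0.22 ± 0.43 for Ifi44, adjusted p = 0.692) were not shown to differ, though for Ifi44 the DMSO libraries set the answer: the difference was 1.59 (adjusted p = 0.0495) without SSTC3_Control replicate 1 and -1.002 (adjusted p = 0.0347) without SSTC3_Control replicate 2. The 2 sets also started from different levels, Rsad2 for example from 3.36 CPM with DMSO and 1031 CPM in knockdown_control on average, and a fold change does not take account of that.

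Ifitm3 was the most abundant of the 10 per kilobase of exon in 5 of the 6 groups, and Isg15 was in CK1a_siRNA, with 1053 against 805 CPM per kilobase for Ifitm3. Of the summed level of the 10 per kilobase, Ifitm3 took 79.2% to 79.6% in CK1a_OV and 78.7% to 79.7% in OV_control, so the overexpression groups had nearly the same make-up. With SSTC3 its share was 48.7% to 49.2% against 61.0% to 62.4% with DMSO, while that of Isg15 was 28.8% to 29.0% against 8.47% to 8.8%. In the knockdown set Ifitm3 took 23.6% to 24.3% against 33.5% to 34.3% in the controls, Isg15 31.0% to 31.7% against 31.0% to 31.3%, and Rsad2 22.6% to 22.7% against 14.7% to 15.7%. The share gained with SSTC3 was thus mainly that of Isg15, and the share gained with knockdown mainly that of Rsad2. Rsad2 took 1.94% to 1.96% with SSTC3 and 0.01% to 0.02% in the overexpression set.

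**Figure D5:**
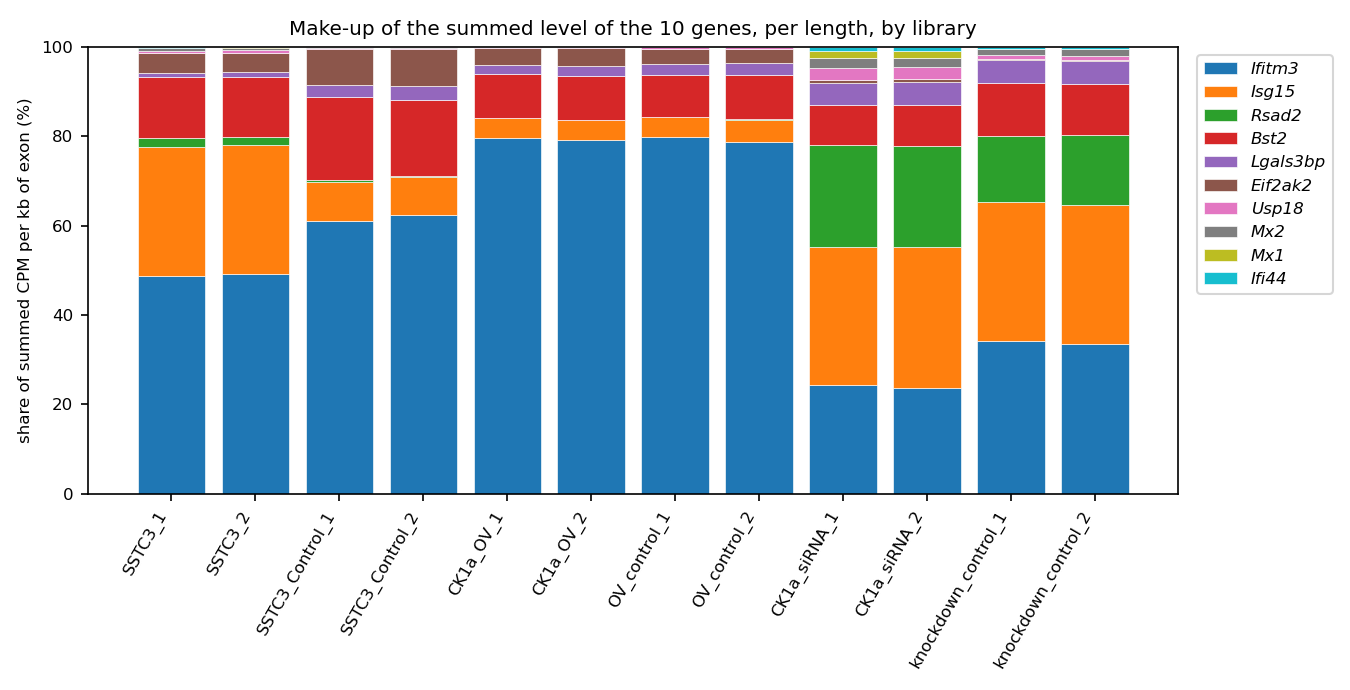
Share of each of the 10 genes in their summed CPM per kilobase of exon, in percent, as a stacked bar from 0 to 100 for each library. Ifitm3 fills the largest share in 5 groups, and Isg15 and Rsad2 fill more of the bars of the knockdown set.

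The genes whose 3 log2 fold changes lay closest to those of Isg15, by Euclidean distance over 11728 genes tested in all 3 comparisons, were Hdc (distance 0.338), Ifit1 (0.342), Gm20559 (0.352), Cd80 (0.429) and Gm48086 (0.509). Ifit1, an interferon-induced RNA-binding protein, had 2.60 with SSTC3, -0.25 with overexpression and 1.44 in the knockdown, beside 2.47, -0.38 and 1.15 for Isg15. Hdc, which encodes histidine decarboxylase, had 2.30, -0.11 and 1.27. The measure uses 3 values from 12 libraries and says nothing of a shared function.

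Markers of other cell types were read beside these results. In the SSTC3 comparison 12 of the 14 fibroblast markers could be tested, of which 3 were higher and 8 lower, and the summed level was 5853 to 5940 CPM with SSTC3 and 7148 to 7402 CPM with DMSO. In the overexpression comparison 6 of 8 tested were lower and the sum was 2314 to 2336 against 2480 to 2517 CPM. With knockdown 1 of 8 was higher and 4 lower, at 1160 to 1166 against 1302 to 1325 CPM. Of all genes tested, 27.1% were called higher and 26.5% lower with SSTC3. The share called lower was 7.57% with overexpression, and 28.3% were called higher and 26.4% lower with knockdown. Of the 21 macrophage markers, 4 could be tested with knockdown: Cd68, which carries the sum, was higher (0.28 ± 0.04, edgeR adjusted p = 1.77e-07), Fcgr1 lower (-2.75 ± 0.68, adjusted p = 0.00048), and 2 were not called, with a median of -0.46. With SSTC3, 3 could be tested, of which Cd14 was higher (0.42 ± 0.17, adjusted p = 0.033) and 2 were not called. The macrophage sum was 11.7 to 12.2 CPM with SSTC3 and 9.56 to 9.79 CPM with DMSO. Siglech, the defining marker of plasmacytoid dendritic cells, an abundant source of interferon, had 0 counts in all 12 libraries. The 5 markers listed for these cells summed to 41.3 to 70.9 CPM, nearly all from Runx2, with group means of 41.0 to 67.6 CPM. With knockdown 1 of them could be tested and was higher (log2 fold change 0.19), while none was called in the other comparisons. The 5 endothelial markers summed to at most 3.3 CPM. The 5 epithelial markers summed to 2.41 to 2.83 CPM with SSTC3 and 0.762 to 1.009 CPM with DMSO, and Epcam was higher there (2.99 ± 0.68, adjusted p = 5.31e-05) at 12 and 28 against 2 and 3 counts. In the other groups they summed to at most 1.25 CPM. The part of these marker levels in the results was not tested.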

How the data were processed

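Reads of polyA+ RNA were aligned with HISAT2 and counted per gene with featureCounts on mm10 by the authors, per the submitters' processing notes. The deposited values are raw whole-number counts, 1 file per library; no source used here names a tool version, annotation or strand setting. Symbols, positions and exon lengths come from GENCODE M21 (mm10).

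Each comparison was fitted on its own 4 libraries with edgeR 4.0.16 (R 4.3.3): filterByExpr, TMM factors, robust quasi-likelihood F test, Benjamini-Hochberg adjustment over all genes tested, threshold 0.05. The SE is the absolute log2 fold change divided by the square root of F, and can be too small for low counts. Each of these fits of 4 libraries had 2 residual degrees of freedom. The spread of a gene was moderated by that of all genes, with median prior degrees of freedom of 254.2 with SSTC3, 51.2 with overexpression and 59.5 with knockdown. Very small p-values therefore rest largely on spread borrowed from other genes, and their sizes are not comparable between comparisons. Differences between effects were contrasts in 1 fit of all 12 libraries, without genes at 0 throughout an involved set. Levels are CPM of the library total. Replicates differed by more than sampling noise (chi-square 2.29 to 3.61 per degree of freedom), so none was counted as a copy. The procedure was also run on simulated counts with 200 changed genes and the same spread for every gene. That setting is simpler than these data, so nothing about the calls here is concluded from it.

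The 10 genes and the other lists were chosen with earlier results of these data known. Named genes are the 10, Csnk1a1, up to 4 per list with the smallest adjusted p in a comparison, and the 5 most like Isg15; 1 further gene of the interferon pathway is not reported here. Alternatives were DESeq2 1.42.0, limma-voom (limma 3.58.1), scaling by RLE factors or by library totals, a fit of all 12 libraries, a replicate block, leaving out each library, and the filter replaced by none or by a minimum of 1 CPM in 2 libraries.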

Additional observations from a re-analysis of the deposited data

How the results depend on the processing

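Of 28 testable effects of the 10 genes, 23 kept direction and side of the threshold wherever an alternative gave an adjusted p. Usp18 with overexpression is among these 23, though DESeq2 gave it none and so did not call it. Mx2 with overexpression, not called under any, reversed without CK1a_OV replicate 1 (0.19) and without OV_control replicate 1 (0.34). Its range was -1.02 to 0.34 when a library was left out. The remaining 4 effects lost a call under at least 1 alternative. The lost calls were those of Ifi44 (1.88, adjusted p = 0.162 with DESeq2) and Eif2ak2 with SSTC3, and of Isg15 (-0.38 with DESeq2) and Ifi44 with overexpression, with the values given above; the cause was not tested. In the overexpression comparison 1863 genes were called, 607 with DESeq2, 1204 with all 12 libraries, and 1065 to 1478 with a library left out (1065 without OV_control replicate 1 and 1220 without OV_control replicate 2). Of the 10 genes 6 were called there, 3 with DESeq2, which gave no adjusted p for Usp18 and Ifi44, and 4 to 6 with a library left out. Without a library, 9 to 10 were called with SSTC3, and 7 to 8, 7 to 8 and 7 to 9 in the differences of SSTC3 from overexpression, of SSTC3 from knockdown and of overexpression from knockdown. With library totals the calls with SSTC3 were 3287 higher and 4427 lower, against 3830 and 3749.

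No pairing by replicate number was detected, though this cannot show that the samples were unpaired. Deviations of same-numbered libraries had correlations of -0.048, -0.017 and -0.039 over 8801 genes. With the replicate number as a block, 7303, 1768 and 8066 genes and 10, 6 and 10 of the 10 genes were called with SSTC3, overexpression and knockdown. Depth limits Mx1, Mx2, Usp18 and Ifi44 in the BMDM-labelled set and Mx1, Mx2, Rsad2 and Ifi44 in the overexpression set, where a few counts set the values.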
